A study of Rattus norvegicus with 10 samples.

Results

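rno-miR-9 and rno-miR-9* are the opposite arms of the same precursor hairpins and were taken by name, as 2 of the 679 rat miRNA probes on a miRNA array of rat tissue labeled as medial prefrontal cortex (mPFC). The pair was chosen on measured values, since the morphine against saline intensities of both arms were known when it was picked. Those intensities are therefore given as a description with no test. The tissue came from wild-type Sprague Dawley rats of 2 months, and total RNA of 5 chronic morphine-treated and 5 saline-treated rats was labeled with the dye Hy3 and hybridized to 1 array per rat. Morphine was given intraperitoneally in 2 injections daily over 5 days, each of 10 mg/kg at the start, then 20 and 30, and 40 mg/kg for the last 2 days, and the control rats received saline on the same schedule. The array was the miRCURY LNA Array, whose capture probes contain locked nucleic acid, a modified nucleotide that binds short RNAs tightly. Each value below is the brightness of a spot after the local background around it was subtracted, in scanner units, and each miRNA had 4 spots per array.

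A miRNA precursor is a short RNA hairpin that the enzyme Dicer cuts into a duplex of its 5′ and 3′ arms, 1 of which is usually kept by an Argonaute protein as the guide and pairs with target mRNAs through its seed. miR-9, the 5′ arm, is among the most abundant miRNAs of the vertebrate brain, and in the developing brain it acts on the nuclear receptor TLX, which keeps neural progenitors dividing. Both arms are known to be functional. miR-9 targets the transcriptional repressor REST, miR-9* targets its cofactor CoREST, and REST in turn represses miR-9 genes, while miR-9* acts with miR-124 on BAF53a, a subunit of the chromatin remodeling complex of neural progenitors.

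Both arms were matched in RefSeq, where the older array names correspond to rno-miR-9a-5p and rno-miR-9a-3p. They are shown with the seed (bases 2 to 8) in capitals, because the arms regulate targets through different seeds. No other mature miRNA among the 693 in the RefSeq rat table (GRCr8) shares either seed.
rno-miR-9: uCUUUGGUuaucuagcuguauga
rno-miR-9*: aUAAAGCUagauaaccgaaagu

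The same 23-base and 22-base arms occur in 3 rat precursors, so that a signal on either probe cannot be assigned to 1 of the 3 genes. Mir9-1 lies at chr2:175974971-175975059 within the long noncoding RNA gene LOC100911992, Mir9-2 at chr2:15933292-15933378 within Mir9-2hg and Mir9-3 at chr1:142849400-142849489 within the long noncoding RNA gene Mir9-3hg, all on the plus strand of GRCr8. The hairpins are shown with miR-9 and then miR-9* in capitals, because the arms are identical in all 3 and the loops and flanks between them differ. The loop between the arms is 16 bases in Mir9-1 and Mir9-3 and 14 bases in Mir9-2.
Mir9-1: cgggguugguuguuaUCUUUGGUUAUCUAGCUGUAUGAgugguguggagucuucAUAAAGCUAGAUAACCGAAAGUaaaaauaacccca
Mir9-2: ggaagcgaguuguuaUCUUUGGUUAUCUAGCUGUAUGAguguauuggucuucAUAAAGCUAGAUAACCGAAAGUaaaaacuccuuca
Mir9-3: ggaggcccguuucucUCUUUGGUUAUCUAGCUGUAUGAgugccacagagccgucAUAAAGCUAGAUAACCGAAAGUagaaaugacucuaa

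RefSeq also places a hairpin on the minus strand of each of these loci (Mir3597-1, Mir3597-2 and Mir3597-3), whose arms have probes of their own on the array under the names miR-3597-5p and miR-3597-3p. They are shown because their bases resemble the arms of miR-9, again with the seed in capitals. miR-3597-5p shares 17 of its 19 bases with miR-9, and miR-3597-3p shares 16 of its 18 bases with miR-9*. The seeds of both differ from those of miR-9 and miR-9*.
rno-miR-3597-5p: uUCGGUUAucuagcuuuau
rno-miR-3597-3p: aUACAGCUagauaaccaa

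The arrays of the 2 groups differed in more than these miRNAs. The median local background was 63 to 141 on the morphine arrays and 84 to 348 on the saline arrays. The number of rat miRNA probes at an intensity of 30 or more was 260 to 419 on the morphine arrays and 180 to 281 on the saline arrays. Across the 301 rat probes that reached 30 on at least 5 arrays, which were the probes tested, the log2 values of morphine replicates 3 and 5 correlated more closely (r = 0.971, across probes) than the other morphine pairs (0.628 to 0.852). Saline pairs lay between 0.754 and 0.932 and pairs of 1 array from each group between 0.184 and 0.634. Levels of several cell type markers also went against the tissue label on the saline arrays. Most neuronal and all 3 oligodendrocyte marker miRNAs examined were below 30 there, as were most rat probes. Of the oligodendrocyte ones, only miR-338 reached 30 on all 5 morphine arrays. The summed connective tissue markers were brighter on the saline than on the morphine arrays. The neuronal miR-124 and miR-138, however, were measured on all 5 saline arrays, and values are given at the end. Whether the dissected tissue was alike in the 2 groups was not tested, and in every morphine minus saline value below a difference in tissue and the treatment cannot be told apart. Which slide and scan an array belonged to was not stated in the sources read.

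miR-9 was bright on every morphine array and gave no signal above its surroundings on any saline array. Averaged over its 4 spots, the background-subtracted intensity of rno-miR-9 was 7811, 8251, 17173, 6071 and 21590 on morphine arrays 1 to 5. On saline arrays 1 to 5 it was -51.2, -76.2, -25.2, -139 and -261. The groups did not overlap, all 20 saline spots of the probe were below 0, and the dimmest of the 20 morphine spots was 3260. Among the morphine arrays, replicates 3 and 5 were the brightest and replicate 4 the dimmest.

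The probe of miR-9* was at 30 or more on all 10 arrays. Whether other RNAs add to the signal of this probe was not tested. The background-subtracted intensity of rno-miR-9* was 7144, 8344, 19258, 11625 and 27656 on morphine arrays 1 to 5. On saline arrays 1 to 5 it was 2572, 2060, 2330, 1912 and 4170. Every morphine array was above every saline array, with morphine replicates 5 and 3 the brightest of all 10 and saline replicate 5 the brightest of its group. The plot of single spots shows both arms side by side.

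**Figure D1:**
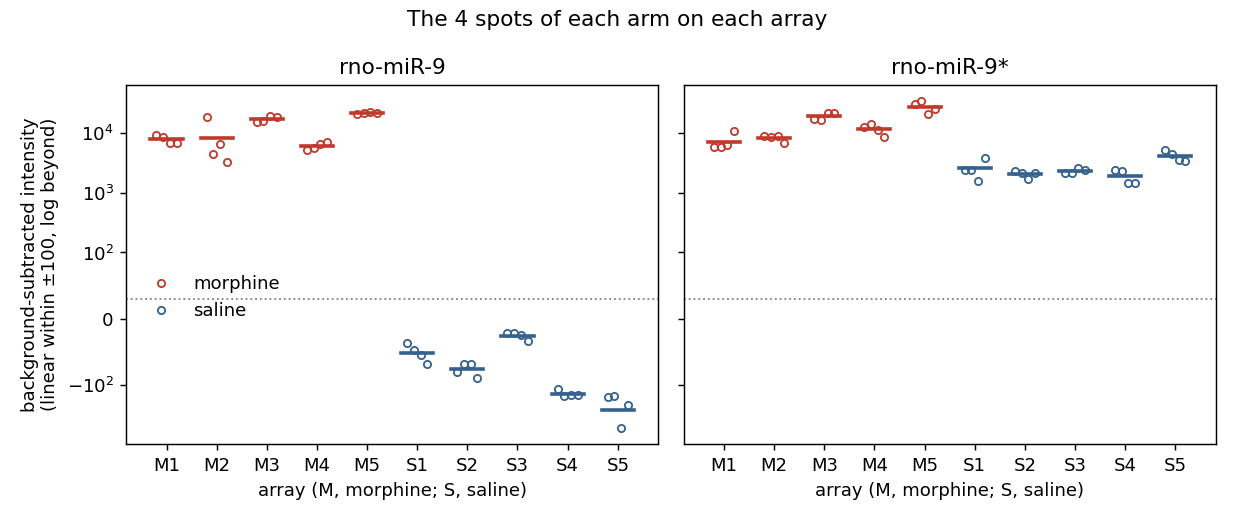
Background-subtracted intensity of the 4 spots (circles) of rno-miR-9 (left) and rno-miR-9* (right) and their mean (bar) on each morphine (M1 to M5) and saline (S1 to S5) array, with a dotted line at 30 and an axis that is linear within ±100 and logarithmic beyond. The saline spots of rno-miR-9 lie below 0 on all 5 arrays, whereas those of rno-miR-9* lie between 1456 and 5291.

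For both arms every morphine spot was above every saline spot, but the spread between spots on 1 array was not always small. On saline replicate 1 the spots of rno-miR-9* ran from 1602 to 3866. For rno-miR-9* the dimmest of the 20 morphine spots was 5774 and the brightest of the 20 saline spots 5291. The coefficient of variation of the 4 spots of rno-miR-9 was 4.12% to 17.3% on 4 of the morphine arrays and 85.8% on morphine replicate 2, where 1 spot read 18659 and the dimmest 3260 (spot median 5543). For rno-miR-9* it was 12.0% to 33.2% on the morphine arrays and 9.76% to 36.7% on the saline arrays. No spot of either probe reached the ceiling of the scanner, the brightest foreground being 22811 for rno-miR-9 and 34098 for rno-miR-9*.

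To compare the rats, intensities were scaled by the array's median of the 120 rat probes that read at least 30 on all 10 arrays and then returned to intensity units. After this scaling rno-miR-9 ranged over 5169, 6696 and 22186 (lowest, median and highest) on the morphine arrays, and it stayed below 0 on the 5 saline arrays. rno-miR-9* averaged 14918 ± 10375 on the morphine arrays and 2812 ± 1134 on the saline arrays (SD, n = 5 each). The lowest scaled rno-miR-9* value on a morphine array was 6124 and the highest on a saline array 4838, so that the groups were separated by a factor of 1.27 at their closest. Without saline replicate 5, the other saline arrays lay between 2195 and 2380.

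On the log2 scale, with values below 30 set to 30, the mean of rno-miR-9 was 13.30 on the morphine arrays and 4.91, the floor itself, on the saline arrays. Since no saline array reached 30, the fitted difference of 8.39 depends on that floor. Taking for each saline array the dimmest rat probe that it still registered at 30 or more, or 30 where that was higher, rno-miR-9 was at least 305-fold higher on the morphine arrays, a bound that holds for this background subtraction and scaling. For rno-miR-9* the means were 13.57 on the morphine arrays and 11.38 on the saline arrays, a difference of 2.19 ± 0.51 (SE from the spread of the arrays in each group), or 4.55-fold. Both arms were among the 64 of 301 tested probes (21.3%) with every morphine array above every saline array, and as they were picked for this contrast nothing is read from that. Over all 301 tested probes, 98 were higher in morphine by limma (32.6%, Benjamini-Hochberg adjusted p under 0.05) and 35 lower (11.6%). The split of calls depended on scaling, which gave 67 higher and 63 lower calls by quantile normalization and 46 higher and 54 lower by cyclic loess. With normexp it was 45 higher and 50 lower, and with negative-control probes as the baseline, where 434 probes passed the filter, 90 higher and 86 lower. The median log2 difference of the tested probes was 0.45 here and between -0.43 and 0.63 across the alternatives.

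The foreground, which is the brightness of the spot before any subtraction, gave the same order of the groups. For rno-miR-9 it was 6134 to 21711 on the morphine arrays and 56.2 to 166 on the saline arrays, so that the lowest morphine array exceeded the highest saline array 37.0-fold with no background removed. For rno-miR-9* the corresponding factor was 1.61. The 7 negative-control probes, which are designed to match no miRNA, had foregrounds of 46.2 to 335 on the saline arrays. On each saline array between 3 and 5 of those 7 probes were brighter than rno-miR-9, and the distance of rno-miR-9 from their median was -16.8 to 14.2 intensity units. On the morphine arrays none of the 7 was brighter, and the distance was 6062 to 21632. rno-miR-9* lay 7198 to 27698 units above that median on the morphine arrays and 2056 to 4358 units above it on the saline arrays.

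**Figure D2:**
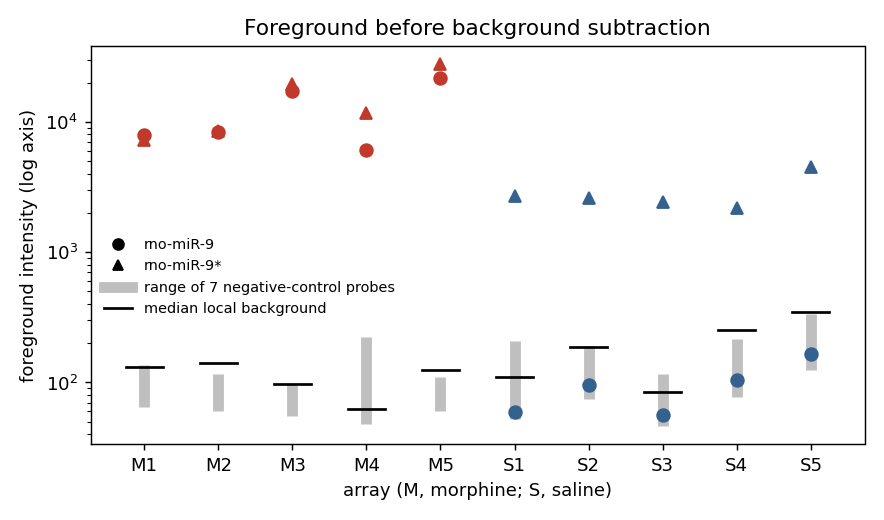
Mean foreground intensity (log axis) of rno-miR-9 (circles) and rno-miR-9* (triangles) on each morphine (M1 to M5) and saline (S1 to S5) array, with the range of 7 negative-control probes (grey bars) and the median local background (black lines). On the saline arrays rno-miR-9 lies inside the range of the negative-control probes and rno-miR-9* far above it.

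Because both arms were read on the same array, their ratio is free of the scaling factor. Probes bind with different strength, so that a ratio of intensities says nothing about which arm had more copies, and only its change between arrays can be read. What other RNAs add to the signal of either probe, and so to the ratio, was not tested. The ratio of rno-miR-9 to rno-miR-9* was 1.09, 0.989, 0.892, 0.522 and 0.781 on morphine arrays 1 to 5. On saline arrays 1 to 5 it was at most 0.0117, 0.0146, 0.0129, 0.0157 and 0.0072, with rno-miR-9 put at 30. The lowest morphine ratio exceeded the highest saline limit 33.3-fold. The mean log2 ratio was -0.27 on the morphine arrays and, as a limit, -6.38 on the saline arrays. With the floor set after scaling, the log2 differences of the arms between the groups were 6.21 apart, a value that moves with the floor. With the median of the spots in place of their mean, the ratio on morphine replicate 2 was 0.635, and the morphine range became 0.507 to 1.25.

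**Figure D3:**
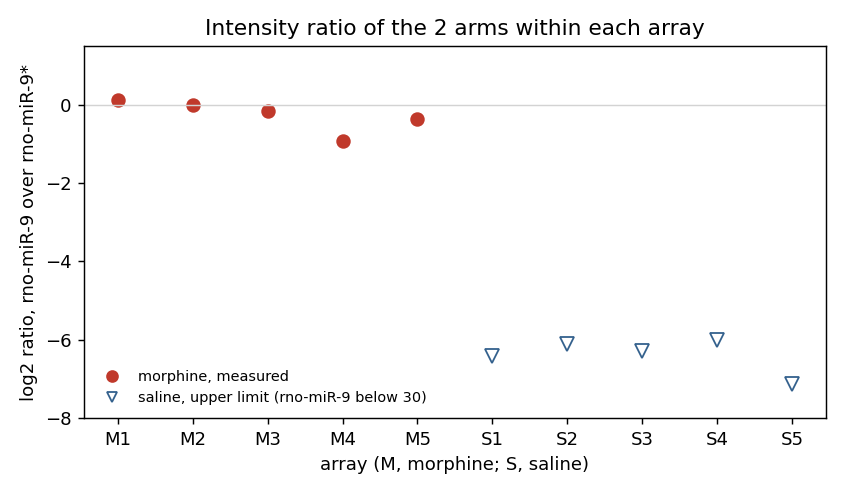
Log2 ratio of the intensity of rno-miR-9 to that of rno-miR-9* within each morphine (M1 to M5, circles) and saline (S1 to S5, open triangles) array. The 5 measured morphine ratios lie between -0.94 and 0.13, and the 5 saline points, which are upper limits, between -7.12 and -5.99.

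Among the morphine rats both arms were brightest on replicates 3 and 5, and their joint variation rests on these arrays. On replicates 1, 2 and 4 the scaled intensity was 6696, 6467 and 5169 for rno-miR-9. For rno-miR-9* it was 6124, 6540 and 9898, so that the arms did not vary together there. The scaled intensity differed between the highest and the lowest morphine array by a factor of 4.29 for rno-miR-9 and 4.64 for rno-miR-9*, whereas their ratio differed by a factor of 2.09. The SD of the log2 values over the 5 morphine arrays was 1.01 for rno-miR-9 and 1.03 for rno-miR-9*, and that of their log2 ratio 0.41. This ratio was the sixth most stable of the 37 precursors with both arms at 30 or more on all 5 morphine arrays. The other 36 had SDs of 0.19 to 3.02, with a median of 1.52. The brightest arrays for both arms were replicates 3 and 5, whose profiles were also the most alike, and with these 2 arrays averaged as 1, which was tried after the data had been seen, the log2 difference was 8.12 for rno-miR-9 and 1.91 for rno-miR-9*. Whether these replicates shared RNA or a slide was not tested. On the saline arrays the ratio has only a limit, so that a joint variation of the arms cannot be read there.

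Of 259 rat precursors with a probe for each arm, 61 had both arms among the tested probes. The arms of the other 60 differed in their log2 difference between morphine and saline by 0.02 to 6.48, with a median of 1.39. The gap of 6.21 for miR-9 is given no place among them, as it was 7.79 with a floor of 10 and 4.47 with a floor of 100. The gaps of the other pairs were not computed at those floors. Among the others the widest gap at the floor of 30 was that of miR-551b, with 4.78 for miR-551b (adjusted p = 0.00061 by limma) and -1.70 for miR-551b* (adjusted p = 0.00501). miR-338, which is enriched in oligodendrocytes, had the next gap, with 3.68 for miR-338, which was below 30 on every saline array, and -1.94 for miR-338* (adjusted p = 0.0307 by limma). These were the 2 of the 60 pairs whose arms passed the test in opposite directions, while 12 had both arms higher and 2 had both lower. In the remaining 44 at least 1 arm did not pass. In 7 pairs, miR-9 and miR-338 among them, 1 arm was below 30 on every saline array and the other at 30 or more on every one. The other 5, named after their values had been seen, were miR-3584, miR-539, miR-107, miR-136 and miR-382. miR-124, the neuronal miRNA that shares a target with miR-9*, could not be set beside them, because miR-124* reached 30 on 4 morphine and 0 saline arrays and was not tested.

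**Figure D4:**
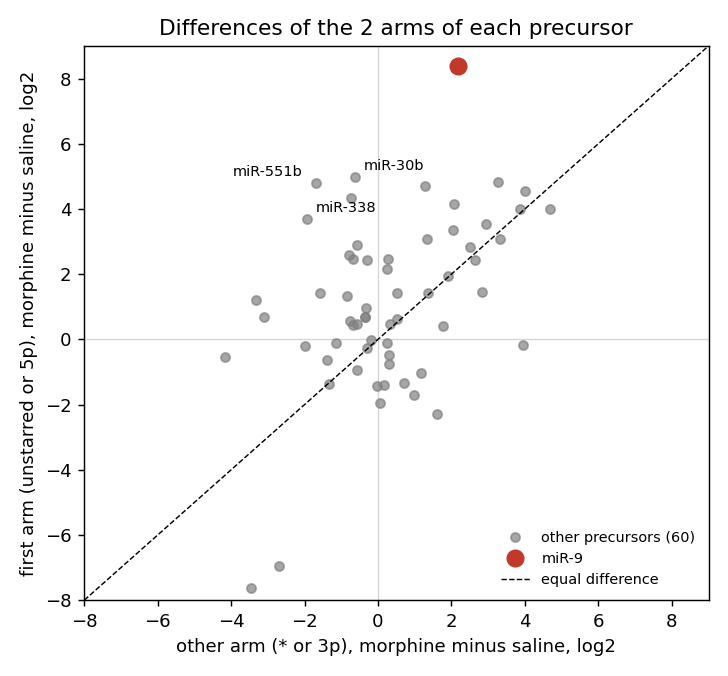
Morphine minus saline difference (log2) of the unstarred or 5p arm against that of the starred or 3p arm for the 61 rat precursors with both arms tested, with miR-9 in red and the line of equal difference dashed. miR-9 lies 6.21 above that line, with 8.39 for rno-miR-9, whose saline values are at the floor, and 2.19 for rno-miR-9*.

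The 2 probes of the minus-strand hairpins behaved differently from each other. rno-miR-3597-5p, which resembles miR-9, had scaled intensities of 535, 468, 604, 81.3 and 685 on morphine arrays 1 to 5 and was below 30 on all 5 saline arrays. It was at least 11.6-fold higher on the morphine arrays by the same bound as miR-9. Its intensity amounted to 0.0799, 0.0724, 0.0287, 0.0157 and 0.0309 of that of rno-miR-9 on the same 5 morphine arrays, where the spots of both probes varied most on replicate 2. rno-miR-3597-3p, which resembles miR-9*, was below 30 on all 10 arrays, also where rno-miR-9* read 27656. Binding of miR-9 to the miR-3597-5p probe was not tested.

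The patterns nearest to each arm were found by the root mean square difference of log2 values over the 10 arrays, after each probe was centered on its own mean. This measure uses the same contrast as the choice of the arms and describes the arrays only. Nearest to rno-miR-9 were miR-128 (0.66, against a median of 4.13 over 300 probes), miR-124 (1.44), miR-218a (1.73), miR-30b-5p (1.79) and miR-384-3p (1.87). rno-miR-9 itself and miR-128, miR-218a and miR-384-3p were at the floor on all 5 saline arrays, so that these distances rest on it. miR-128, a brain-enriched miRNA, ranged from 1393 to 12322 in scaled intensity on the morphine arrays and was below 30 on all 5 saline arrays. miR-124, the most neuron-restricted of them, read 24266 to 66410 on the morphine arrays and 507 to 1349 on the saline arrays. Nearest to rno-miR-9* were miR-127 (0.26, against a median of 1.51), miR-148b-3p (0.35), miR-330* (0.36), miR-324-5p (0.41) and miR-153* (0.47). miR-127, from an imprinted cluster, ranged from 1338 to 5233 on the morphine arrays and from 337 to 1143 on the saline arrays. miR-330*, miR-324-5p and miR-153* were below 30 on all 5 saline arrays, so that their nearness rests on the floor as well. rno-miR-9* was 66th from rno-miR-9 over the 10 arrays, and 10th of 226 probes when only the 5 morphine arrays were used.

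Other miRNAs of the same circuit were read from lists chosen with earlier results of these data known. The list of miRNAs whose genes are described as REST targets held 16 members besides miR-9, of which 12 passed the filter on low values, 8 of them only through the morphine arrays. Of these 12, 10 were higher in morphine and 0 lower, where 32.6% and 11.6% of all tested probes were called, and 2 did not pass. Both arms of several hairpins are members, as with miR-132, miR-153 and miR-330, so that the 12 are not independent of each other. A member that reached 30 on the morphine arrays only had to differ. Of the 40 such probes among all 301 tested, 37 were called higher, and they are part of the 32.6%. Of the 4 members that reached 30 on a saline array 2 were higher, and the 32.6% is no matched share for these. With 30 required on all 10 arrays, the 1 member that passed was higher, beside 19 of 120 probes. miR-124 was higher by 5.75 ± 0.46 on the log2 scale (SE; adjusted p = 8.33e-07 by limma). miR-132, which activity induces in neurons, was at least 21.1-fold higher in morphine, and miR-137, a brain miRNA, at least 23.9-fold higher. Both were below 30 on all 5 saline arrays and were tested only because of their morphine values. miR-212 (adjusted p = 0.0644 by limma) and miR-137* (adjusted p = 0.204) had log2 differences of 1.94 and 1.29 and did not pass.

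The list of regulators of neural progenitors or neuronal differentiation held 14 members besides miR-9, of which 10 passed the filter, 2 of them only through the morphine arrays. Of these 10, 7 were higher, 0 lower and 3 not past the test, beside 32.6% higher and 11.6% lower over all tested probes. Of the 8 that reached 30 on a saline array 5 were higher. The 32.6% is no matched share for these 8, as it includes 37 probes that were below 30 on every saline array. With 30 required on all 10 arrays, 2 of 4 members were higher, beside 19 of 120 probes. miR-128, tested only through its morphine values, was at least 185-fold higher on the morphine arrays, and miR-124 and miR-137 are on this list as well. The 3 that did not pass were miR-34a, miR-125b-5p and let-7b, with log2 differences of -1.12, 0.68 and -0.24. miR-34a was lower after quantile normalization (adjusted p = 0.0183 by limma) and under 2 other settings.

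**Figure D5:**
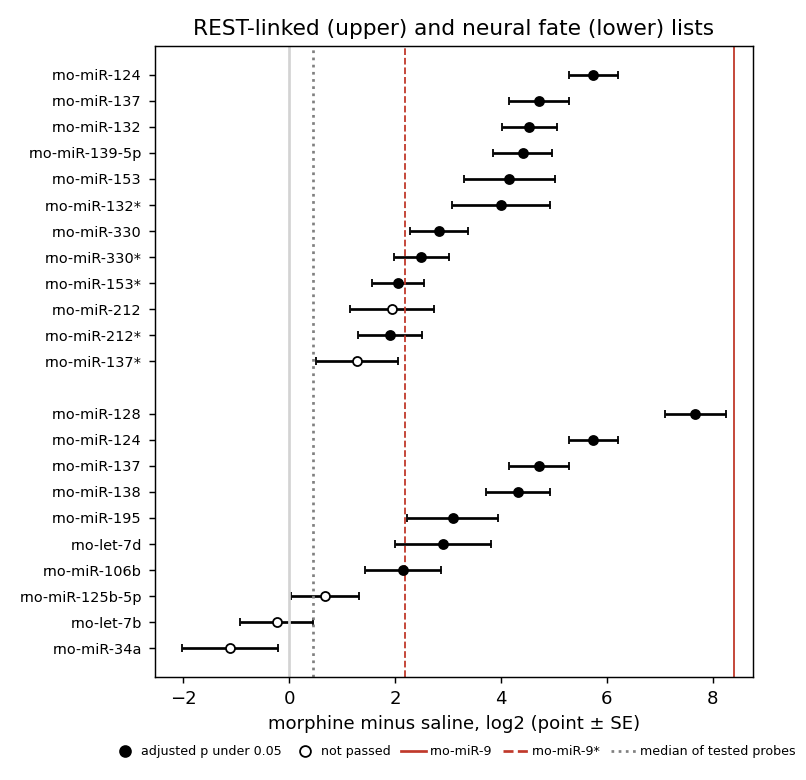
Morphine minus saline difference (log2, ± SE of the limma fit) of the tested members of the REST-linked list (upper) and the neural fate list (lower), filled where the adjusted p was under 0.05. Of 12 REST-linked and 10 neural fate members, with both arms of a hairpin counted separately, 10 and 7 were higher, beside 32.6% of all tested probes. Of these members, 8 and 2 passed the filter only through the morphine arrays. Lines mark rno-miR-9 (8.39), rno-miR-9* (2.19) and the median of all tested probes (0.45).

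The labeled tissue was checked against markers of its cell types. Of 9 neuronal miRNAs, 6 were below 30 on every saline array (miR-128, miR-129, miR-137, miR-153, miR-218a and miR-383) and none on every morphine array. Most rat probes were below 30 on a saline array, as 180 to 281 of 679 reached it. Among tested probes, 4 of 7 neuronal ones were below 30 on every saline array, beside 40 of all 301 (13.3%). The summed scaled intensity of the 9 was 30457 to 95693 on the morphine arrays and 596 to 1496 on the saline arrays. miR-124 alone read 24266 to 66410 and 507 to 1349, so that the sum mainly follows this probe. The 3 oligodendrocyte miRNAs (miR-219-5p, miR-219-2-3p and miR-338) were below 30 on every saline array, and their sum was 177 to 1720 on the morphine arrays. Of these, miR-219-5p and miR-219-2-3p reached 30 on only 3 morphine arrays each and were not tested, so that the contrast mainly rests on miR-338. The 6 connective tissue and vessel wall miRNAs ran the other way. They summed to 1471 to 5101 on the morphine arrays and 11534 to 42664 on the saline arrays, with 4 of 6 lower in morphine by limma and 0 higher (11.6% and 32.6% over all tested probes), and miR-199a-3p below 30 on every morphine array. On the saline arrays miR-21, miR-199a-5p and miR-214 averaged 9184, 7542 and 6285, so that the sum there mainly follows them. The other connective tissue members averaged 1668 (miR-143), 601 (miR-145) and 421 (miR-199a-3p) there. miR-143 and miR-145 did not pass (adjusted p = 0.475 and 0.0876 by limma). The 5 blood miRNAs summed to 1351 to 8373 on the morphine arrays and 28.3 to 221 on the saline arrays, where miR-142-3p, miR-144 and miR-223 were below 30 throughout. The 4 muscle miRNAs summed to 27.6 to 194 on the morphine arrays and 77.7 to 1695 on the saline arrays, and miR-1 was below 30 on all 10, as was miR-133a on the saline arrays. The other 3 neuronal miRNAs were measured on saline arrays, miR-124 and miR-138 on all 5 and miR-7a on 2. The part of these marker levels in the values of miR-9 and miR-9* was not tested. In tissue RNA, fewer cells of a type and less of a miRNA per cell cannot be told apart.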

How the data were processed

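The authors deposited foreground and background-subtracted spot intensities (linear scale, 4 spots per probe, not scaled between arrays), extracted with GenePix software, and 1 intensity per probe and array, which equaled the spot median in all 35410 values to within 1e-06. Slides, scan dates and the background estimator were not stated in the sources read. Background-subtracted spots were averaged, scaled as described, set to at least 30 and log2-transformed. The 301 rat probes at 30 or more on at least 5 of 10 arrays were fitted together in R 4.3.3 by the moderated two-sided test of limma 3.58.1, with Benjamini-Hochberg adjustment. The fit was tested on simulated normal values that had no floor, which does not cover probes held at the floor throughout a group. The members and lists were chosen with earlier results of these data known. Named were both arms, the 5 nearest probes of each, the 3 members with the smallest p of 2 lists, precursors with the widest gaps between arms, miR-124, miR-338, and markers below 30 throughout a group. The number of arrays limits precision. Alternatives varied the background, scaling, floor, filter and test, added a replicate block, or omitted single arrays. Python 3.11.15 and pandas 2.3.3 were used otherwise. Where a probe name lists several miRNAs, it was read under each.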

Additional observations from a re-analysis of the deposited data

Results flagged for a closer look

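Dixon's test was applied to 10 groups of 5 arrays, and chance alone is expected to mark about 1 in 20 such groups. It marked the scaled intensity of rno-miR-9* on saline replicate 5, which was 4838, with the next saline array at 2380. The local background of that array was also the highest of the 10 (median 348). Its part in the value was not tested. Without saline replicate 5 the log2 difference of rno-miR-9* was 2.28.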

How the results depend on the processing

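The direction of rno-miR-9, rno-miR-9* and their arm difference held in all 19 alternatives. As the pair was picked on this contrast, nothing is read from that. The log2 difference of rno-miR-9* moved by less than the spread between arrays (1.83 to 2.91). For rno-miR-9 the log2 difference was 9.98 with a floor of 10, 6.66 with a floor of 100 and 5.59 with normexp, and the arm difference was 7.79, 4.47 and 3.30 under these and 4.98 with cyclic loess. Leaving out 1 array each gave 8.11 to 8.63 for rno-miR-9, 1.88 to 2.45 for rno-miR-9*, 6.08 to 6.33 for the arm difference, 75 to 103 probes higher and 27 to 36 lower, 9 to 11 REST-linked members higher and 0 lower, and 5 to 7 neural fate members higher and 0 lower.

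Probes higher in morphine numbered 46 with cyclic loess, 45 with normexp, 19 of 120 when 30 was required on all 10 arrays, and 46 by a t-test on scaled intensities. This t-test used the filter and adjustment given here and left out the fold-change limit that the study reported. Probes lower numbered 54 with cyclic loess, 63 with quantile normalization, 86 of 434 with the negative-control baseline, 14 with the filter on all 10 arrays and 14 by the t-test, which gave 100 higher and 33 lower before adjustment. REST-linked members higher numbered 5 with cyclic loess, 6 with a floor of 100, 6 with normexp and 1 with the filter on all 10 arrays, which 1 member passed. Neural fate members higher numbered 4 with cyclic loess, with normexp and with no filter, 3 by the t-test and 2 of the 4 that passed the filter on all 10 arrays. In this list 1 member, miR-34a, was lower with quantile normalization, cyclic loess and the negative-control baseline. Same-numbered rats share only a number (correlations of -0.404 to 0.0543 over 5 pairs, 0 of 5 closest to their own number), and with the replicate block 81 probes were higher and 26 lower, with 10 REST-linked and 6 neural fate members higher. Scaling by the median of all rat probes could not be run, as that median was below 0 on 5 arrays. Signal over background limits rno-miR-9 on the saline arrays to a bound.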
